A study of Mus musculus with 12 samples.

Results

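The interferon response and MHC class I genes followed here are 9 genes, found by their symbols in GENCODE M21 among the 47729 genes with deposited counts, and all 9 of 9 were present. Ifit1, Ifit3, Irf7, Oasl2, Isg15 and Bst2 are 6 interferon-stimulated genes, and B2m, H2-K1 and H2-D1 are the 3 members of MHC class I. The amygdala, a brain region involved in fear and anxiety, was taken from both hemispheres of 12 female C57/BL6 mice, an inbred strain, after behavior tests in the elevated plus maze (EPM) at 9 weeks of age, the light/dark (LD) box at 10 weeks and the social interaction test (SIT) at 11 weeks. Each mouse gave 1 mRNA library. The labels give a predicted anxiety state to 11 of them, with 3 less anxious mice (mice 3, 7 and 12), 4 anxious mice (1, 4, 8 and 11) and 4 more anxious mice (2, 6, 9 and 10), and mouse 5 has no state. The groups are a limited model of anxiety for this question, because the study cut them from the second principal component of the expression data of the same libraries, with no separate treatment or genotype between them. The study reported a high positive correlation of this component with the EPM and LD measures. The states still do not order every mouse by behavior. The more anxious mouse 6 had the highest open-arm time (29.2%), time in the light (46.6%) and distance in the light (41.9%) of the 11 mice. The lowest values of these measures were also those of more anxious mice (mice 2 and 9). For open-arm time, the more anxious mice 2, 9 and 10 were below all other mice with a state.

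Type I interferons bind a receptor that signals through the kinases Jak1 and Tyk2 to a complex of transcription factors, which binds a DNA element, the interferon-stimulated response element (ISRE), in front of its target genes. Among the targets, Ifit1 encodes a protein that binds viral RNA, and Ifit3 belongs to the same family. Irf7 is a transcription factor that amplifies interferon production, and Oasl2 belongs to the 2′-5′ oligoadenylate synthetase family. Isg15 is a ubiquitin-like modifier and Bst2 (tetherin) holds budding viruses at the cell surface. Class I molecules present peptides from inside the cell to T cells and consist of a heavy chain, here H2-K1 or H2-D1, and the invariant light chain B2m, and in the brain they also occur on neurons and glia.

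The promoters of the members were searched for the core of the sequence through which the pathway acts. In RefSeq promoters of the GRCm38.p6 build, from 250 bases before the start of a gene to 50 after it, the ISRE core GAAANNGAAA was searched on both strands, with overlapping matches counted. Of 32851 promoters, 1131 (3.44%) held it, as did those of 5 of the 9 members. In the following stretches, read 5′ to 3′ along the gene with 15 bases on each side, capitals mark the matched letters.
Ifit1, chr19:34640770-34640828, plus strand: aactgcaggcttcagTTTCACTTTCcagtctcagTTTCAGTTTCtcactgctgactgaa
Ifit3, chr19:34583358-34583431, plus strand: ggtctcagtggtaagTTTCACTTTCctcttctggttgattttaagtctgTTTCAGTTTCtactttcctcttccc
Isg15, chr4:156200860-156200911, minus strand: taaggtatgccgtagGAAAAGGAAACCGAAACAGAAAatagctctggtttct
Bst2, chr8:71537572-71537617, minus strand: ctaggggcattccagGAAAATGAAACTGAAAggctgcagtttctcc
B2m, chr2:122147533-122147572, plus strand: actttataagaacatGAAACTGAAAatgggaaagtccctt
In Ifit1 and Ifit3, both on chromosome 19, the core stood in the reverse direction at 2 places each, beginning 104 and 85 bases before the start in Ifit1 and 156 and 122 bases before it in Ifit3, with the same letters at each place in both genes. The single match of B2m began 139 bases before the start. No match lay in the windows of Irf7, Oasl2, H2-K1 and H2-D1. A match describes the letters and is not evidence of binding in this tissue. The lack of a match does not show that a member lacks the element, because only this core and this window were searched.

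Library totals ran from 31745630 to 45142355 estimated counts in the 11 mice with a state and came to 32682574 in mouse 5. Reads fell on 26378 to 28196 genes in the 11 mice and on 23768 in mouse 5, the library that the study had set aside as an outlier. No 2 libraries agreed within sampling noise, with a mean chi-square per gene of at least 17.55 over 66 pairs. Neuron markers such as Snap25 were present throughout (summed level of 6 markers 4357 to 5591 CPM), and pituitary hormone transcripts (Prl, Gh and Pomc) reached 55.76 CPM in mouse 4 and 13.71 in mouse 11, both anxious mice, and summed to at most 3.625 CPM in the less anxious and 1.633 in the more anxious mice. The part of this tissue in the values below was not tested.

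Levels are given as CPM, the reads of a gene scaled to a common library size with TMM factors, and per kilobase of merged exons where genes are compared. Over the 11 mice with a state, B2m was the highest member at 89.7 ± 9.8 CPM per kb (SD, n = 11), and the heavy chains H2-D1 (9.43 ± 2.28) and H2-K1 (7.21 ± 1.49) followed. The interferon-stimulated members lay below them, in the order Ifit3 (3.06 ± 0.631), Isg15 (2.32 ± 0.402), Bst2 (2.17 ± 0.522), Ifit1 (0.612 ± 0.0938), Oasl2 (0.483 ± 0.0972) and Irf7 (0.308 ± 0.0717). Neighbours in this order whose levels did not differ beyond their spread were H2-D1 and H2-K1, Ifit3 and Isg15, Isg15 and Bst2, and Ifit1 and Oasl2. The order of these pairs, apart from Ifit3 and Isg15, also turned when the longest coding transcript set the length, at 11.6 CPM per kb for H2-D1 and 13.1 for H2-K1, 2.32 for Isg15 and 2.48 for Bst2, and 0.612 for Ifit1 and 0.985 for Oasl2. Between mice, B2m varied least (coefficient of variation 10.9%) and H2-D1 and Bst2 most (24.2% and 24.0%).

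The counts of Ifit3 are the least certain, because 41.1% of its 75-base windows also occur in its near copy Ifit3b, so that Salmon had to divide those reads. For Ifit1 this share was 5.19% (with Ifit1bl2), for H2-D1 5.4% and for H2-K1 3.1% (with other class I genes), and for the other members 0. Irf7 overlaps Phrf1 and B2m overlaps Patl2 on the opposite strand, and whether the counting used the strand is not given in the sources used here.

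Levels of the interferon-stimulated members in every mouse show 1 library apart from the rest. Ifit1 had 1.697, 1.934 and 1.799 CPM in the less anxious mice 3, 7 and 12, 1.639, 1.841, 1.581 and 1.782 in the anxious mice 1, 4, 8 and 11, and 1.211, 1.379, 1.225 and 1.781 in the more anxious mice 2, 6, 9 and 10, compared with 4.861 in mouse 5. For Ifit3 the values in the same order were 7.955, 5.476 and 5.972 CPM, then 5.952, 3.998, 4.089 and 5.528, and then 5.07, 4.557, 4.719 and 5.454, with 14.52 in mouse 5. The more anxious mice 2, 6 and 9 had the lowest Ifit1 levels of all, while mouse 10 lay within the range of the others. For Ifit3 every less anxious mouse was above every more anxious mouse, by a gap of 5.476 against 5.454 CPM at the closest.

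Irf7 had 0.7788, 1.356 and 1.382 CPM in the less anxious mice, 1.466, 1.105, 0.7361 and 1.51 in the anxious mice, 1.099, 1.049, 0.9529 and 1.364 in the more anxious mice and 3.585 in mouse 5. Oasl2 had 3.199, 3.165 and 4.042 CPM, then 2.53, 2.762, 2.563 and 3.685, and then 2.894, 2.369, 2.541 and 4.091, with 8.294 in mouse 5. In both genes the 3 groups overlapped. Isg15 ranged from 1.351 CPM (mouse 1) to 2.262 (mouse 4), both anxious mice, and mouse 5 had 2.522. Bst2 had 2.948, 1.934 and 2.086 CPM in the less anxious mice, 1.581, 2.078, 1.772 and 2.447 in the anxious mice, and 1.077, 1.889, 1.906 and 1.864 in the more anxious mice, with 3.646 in mouse 5. As for Ifit3, the less anxious mice were above the more anxious ones without overlap, by 1.934 against 1.906 CPM at the closest, and mouse 2 stood below its group.

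In the class I members mouse 5 lay among the other mice. H2-D1 had 33.88, 24.24 and 26.11 CPM in the less anxious mice, 19.24, 20.75, 18.95 and 34.53 in the anxious mice, 17.09, 21.35, 22.91 and 28.36 in the more anxious mice and 24.7 in mouse 5. H2-K1 had 23.17, 18.81 and 21.2 CPM, then 18.32, 19.7, 17.18 and 30.87, and then 18.13, 17.87, 20.01 and 27.61, with 17.86 in mouse 5. Mice 10 and 11, of different groups, had the highest H2-K1 levels, and mouse 11 with mouse 3 the highest H2-D1 levels. B2m was 71.29, 71.71 and 71.14 CPM in the less anxious mice, 80.54, 79.08, 75.03 and 87.75 in the anxious mice, 75.62, 75.5, 65.34 and 95.42 in the more anxious mice and 80.3 in mouse 5. The less anxious mice were close to each other (SD 0.2963 CPM), inside the range of the more anxious mice.

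**Figure D1:**
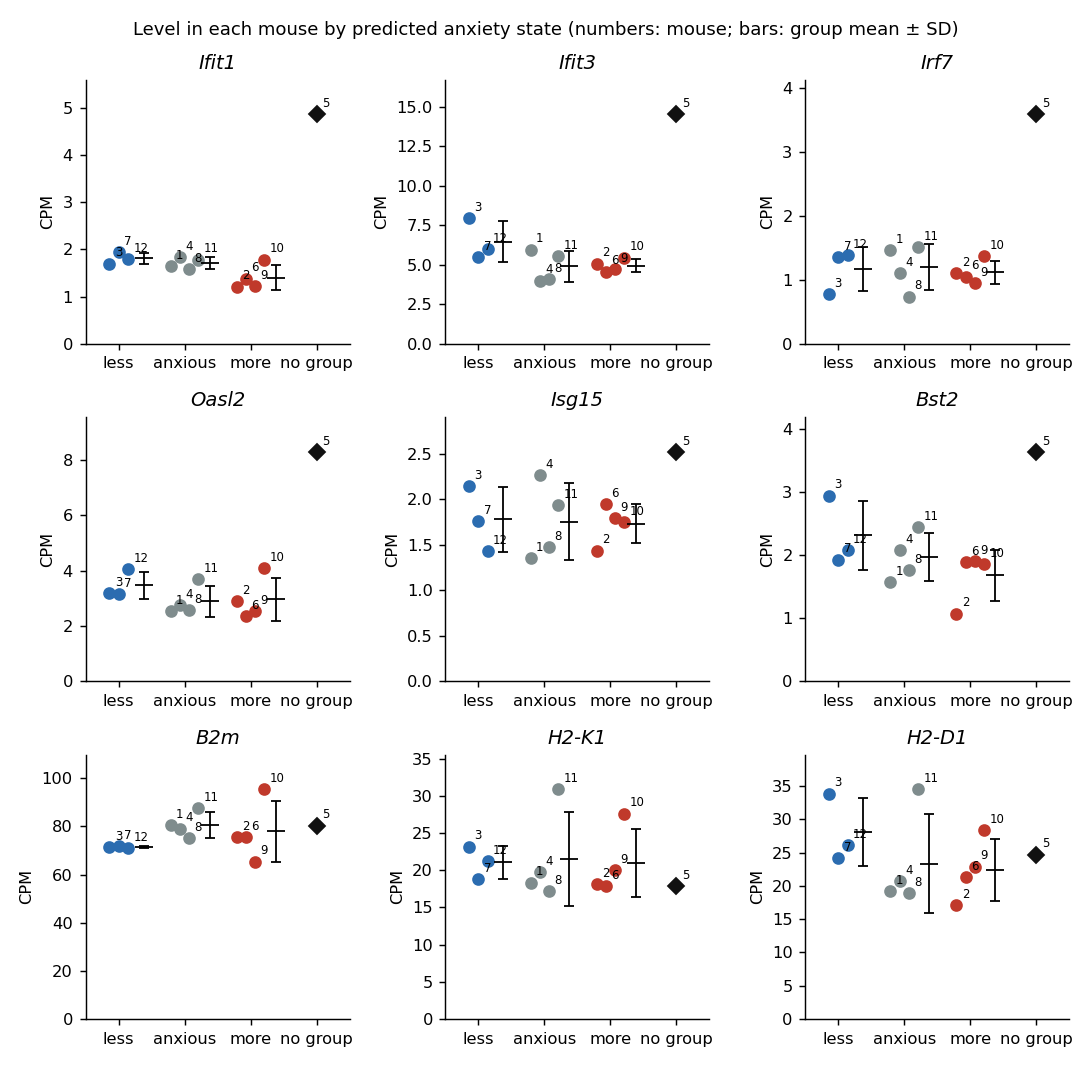
Level of each member in CPM (vertical axis, from 0) in the 12 mice, by predicted anxiety state (horizontal axis), with the mouse number beside each point and the group mean ± SD as a bar. Mouse 5 (diamond, no state) lies above all other mice in the 6 interferon-stimulated members, at 4.861 CPM of Ifit1 and 14.52 of Ifit3, and within their range in B2m, H2-K1 and H2-D1.

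Whether the members change with the predicted anxiety state was tested with edgeR's quasi-likelihood test, with the PC1 score as a covariate and Benjamini-Hochberg adjustment over the 26963 genes tested. None of the 9 members was called across the 3 groups, where 0.00742% of all genes (2 of 26963) were, and 0 had an unadjusted p under 0.05, where 6.35% of all genes did. The smallest p was that of Ifit3 (0.133, adjusted p = 0.873 by edgeR). DESeq2's likelihood ratio test of the same model also called 0 members, and 0 had an unadjusted p under 0.05 (smallest adjusted p = 0.683). In a whole tissue, fewer cells of a type and less RNA per cell cannot be told apart.

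From less to more anxious mice, the fitted level of all 6 interferon-stimulated members was lower, also with the other 2 scalings tried, where 49.5% of all genes had a log2 fold change below 0, but no difference passed the test. Irf7 turned to 0.304 without mouse 7, 0.0658 without mouse 9 and 0.0556 without mouse 12, and Isg15 to between 0.000865 and 0.148 without mouse 1, 2, 3 or 7. Mean Bst2 was 2.323 ± 0.5469 CPM (SD, n = 3) in less anxious and 1.684 ± 0.4051 (SD, n = 4) in more anxious mice, a log2 fold change of -0.40 (SE 0.25, adjusted p = 0.712 by edgeR). For Ifit1 the means were 1.81 ± 0.1191 and 1.399 ± 0.2657 CPM, a log2 fold change of -0.37 (SE 0.21, adjusted p = 0.671 by edgeR), and for Ifit3 6.468 ± 1.312 and 4.95 ± 0.3984 CPM, a log2 fold change of -0.30 (SE 0.16, adjusted p = 0.646 by edgeR). Oasl2 (-0.18, SE 0.22), Irf7 (-0.06, SE 0.30) and Isg15 (-0.03, SE 0.25) were within their standard error of 0. The median of the 6 members was -0.239, against 0.00366 over all genes. In this comparison 0.0445% of all genes were called, and 8.83% had an unadjusted p under 0.05, a level that 0 of the 9 members reached.

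Fitted differences of the class I members had different signs between the outer groups. H2-D1 had 28.07 ± 5.111 CPM (SD, n = 3) in less anxious and 22.43 ± 4.655 (SD, n = 4) in more anxious mice, a log2 fold change of -0.23 (SE 0.18, adjusted p = 0.782 by edgeR). B2m had 71.38 ± 0.2963 and 77.97 ± 12.59 CPM and a log2 fold change of 0.14 (SE 0.12, adjusted p = 0.793 by edgeR). H2-K1, at 21.06 ± 2.181 and 20.9 ± 4.569 CPM, had a log2 fold change of 0.06 (SE 0.17), and its sign turned without mouse 3 (-0.0291), without mouse 10 (-0.0562) and without the covariate (-0.0109). None of the 3 differences passed the test.

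Of the 9 members, 2 (Ifit3 and Bst2) did not overlap between the less and the more anxious mice, and both were higher in the less anxious mice. Among 15892 genes with a mean of at least 1 CPM, 10.0% did not overlap in either direction and 4.78% had every less anxious mouse above every more anxious mouse. The closest mice were apart by 0.022 CPM of Ifit3 and 0.028 CPM of Bst2, where 1 read was worth 0.022 to 0.03 CPM, and Ifit3 overlapped when DESeq2's size factors set the scale.

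The steps between neighbouring groups share mice with the comparison of the outer groups. From less anxious to anxious mice the log2 fold changes of Ifit3 and B2m were -0.32 (SE 0.16, adjusted p = 0.987 by edgeR) and 0.19 (SE 0.12, adjusted p = 0.987 by edgeR), and those of the other 7 members lay between -0.22 (Oasl2) and 0.11 (H2-K1). From anxious to more anxious mice, Ifit1 (-0.29, SE 0.20) and Bst2 (-0.24, SE 0.23) had the lowest values and Oasl2 the highest (0.03, SE 0.20). In each step 0 of the 9 members were called and 0 had an unadjusted p under 0.05, where 4.74% and 4.57% of all genes had such a p and 0.00371% and 0.0% were called. The fitted values of Ifit3 thus lay below those of the less anxious mice by similar amounts in both other groups, and those of Ifit1 mainly in the more anxious mice.

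**Figure D2:**
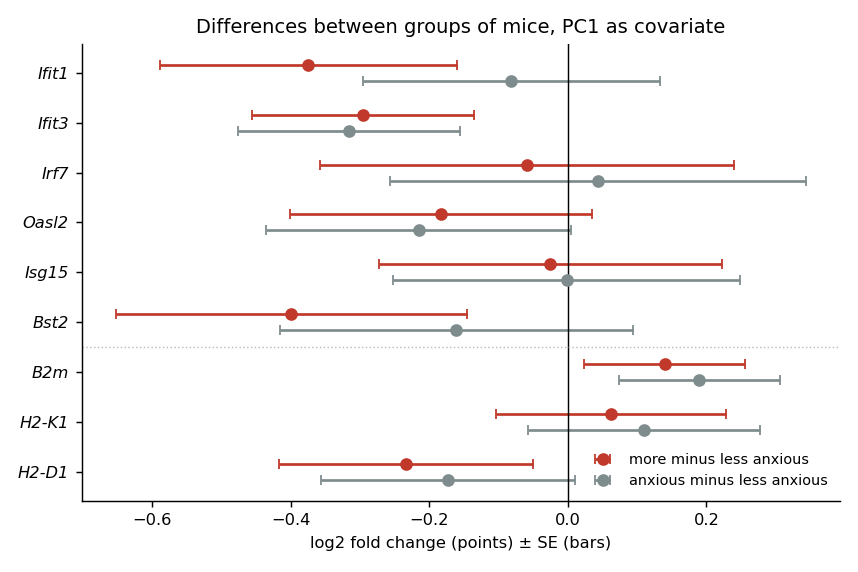
Log2 fold change (horizontal axis, points) with its standard error (bars) for the 9 members (vertical axis), for more minus less anxious mice and for anxious minus less anxious mice. The more anxious values of the 6 interferon-stimulated members lie between -0.40 and -0.03, those of B2m and H2-K1 above 0, and no member was called.

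The microglia markers, genes of the brain's resident immune cells, had a summed level of 295.8 to 347.7 CPM in less anxious, 263.9 to 314.0 in anxious and 243.6 to 307.5 in more anxious mice, and 0 of 8 had an unadjusted p under 0.05 across the groups. All 8 were lower in the more than in the less anxious mice (median log2 fold change -0.204), where 49.5% of all genes were. The 6 endothelial markers summed to 193.1 to 234.3 CPM in less anxious and 129.8 to 163.2 in more anxious mice without overlap. Of these, 3 (Flt1, Slco1a4 and Itm2a) had an unadjusted p under 0.05 across the groups, where 6.35% of all genes did. All 4 astrocyte markers (median log2 fold change -0.272) and all 4 oligodendrocyte markers (-0.155) were lower too, and 4 of 6 neuron markers were higher (0.166). The astrocyte sums, 944.5 to 1163.0 CPM in less and 708.7 to 867.4 in more anxious mice, also did not overlap. Perivascular macrophage markers were low (2.017 to 4.784 CPM for 3 genes), and T cell markers lower still in places (0.263 to 11.06 CPM for 4 genes), with Cd3e or Cd3g at 0 in some mice. Cd4 made up most of the T cell sum in every mouse (10.8 CPM in mouse 12, which had the highest sum). Cd3e, Cd3g and Cd8a were each at most 0.2608 CPM, so the sum mostly gives the level of Cd4. In mouse 5 the sums for microglia (314.7), macrophages (3.372) and T cells (1.094 CPM) were within the range of the other mice. Its sums for red blood cells (33.05 CPM, when the lowest other mouse had 35.78), choroid plexus (5.317, when the lowest had 5.899) and pituitary (0.9722, when the lowest had 1.109) were below those of all 11 mice. The part of these cells in the members' values was not tested.

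Whether the members vary with behavior itself was tested against 7 measures, each standardized over the mice fitted, without groups or covariate. Mouse 4 has no box:zone ratio at 3 min, so that those slopes rest on 10 mice. Of 63 slopes, 0 were called by edgeR and 4 had an unadjusted p under 0.05, all positive, where 3.55% to 8.05% of all genes had such a p, depending on the measure. Of the 63, 50 were positive, and the median slope of all genes lay between -0.00923 and 0.0037. The 63 slopes are not separate observations, because they come from the same mice and 3 of the measures are time points of the SIT. H2-D1 had a slope of 0.21 on the log2 scale per SD of the box:zone ratio of the SIT at 10 min (SE 0.08, n = 11, p = 0.0142, adjusted p = 0.515 by edgeR). At the same time point the slope of Bst2 was 0.21 (SE 0.09, n = 11, p = 0.0371, adjusted p = 0.592 by edgeR) and that of Ifit3 0.16 (SE 0.07, p = 0.0492, adjusted p = 0.617 by edgeR). For this measure 3 of 9 members had an unadjusted p under 0.05, where 8.05% of all genes did (4.29% with a positive slope) and 0.0223% were called. Mouse 3 had a ratio at 10 min of 2.62 when the next highest was 1.58. Without it the slopes were 0.137 for H2-D1 (n = 10, p = 0.129, adjusted p = 0.999 by edgeR), 0.0916 for Bst2 and -0.00449 for Ifit3, and only that of Ifit3 turned in sign. Each is per SD of the ratio in the 10 mice left, which is smaller than the SD over all 11. Their sizes therefore cannot be set directly against the slopes over 11 mice.

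Bst2 also had a slope of 0.23 per SD of the total entries in the EPM (SE 0.11, n = 11, p = 0.048, adjusted p = 0.712 by edgeR), where 6.97% of all genes had an unadjusted p under 0.05 (3.54% with a positive slope) and 0.0% were called. This value rests on mouse 2, which made 6 entries when the median was 29 and had the lowest Bst2 level. Without it the slope was 0.0655 (n = 10, p = 0.54, adjusted p = 1.0 by edgeR), per the smaller SD of the 10 mice left. For open-arm time, time in the light, distance in the light and the box:zone ratio at 3 and 5 min, 0 of 9 members had an unadjusted p under 0.05, where 5.84%, 3.55%, 5.8%, 7.65% and 6.56% of all genes did and 0.0%, 0.00742%, 0.0%, 0.015% and 0.0111% were called. For distance in the light, all 9 slopes were positive, between 0.00238 (Oasl2) and 0.182 (Bst2), where the median of all genes was -0.00195. Irf7 had negative slopes against the box:zone ratio at 3, 5 and 10 min (-0.18, -0.20 and -0.16), the reverse of Bst2 (0.13, 0.20 and 0.21). DESeq2's likelihood ratio test on the same mice called 0 members for any measure and gave 4 slopes with an unadjusted p under 0.05, 3 of them at 10 min. The shares of all genes above are those of edgeR. DESeq2's share is not given here, so its 4 slopes have no background to be set against.

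**Figure D3:**
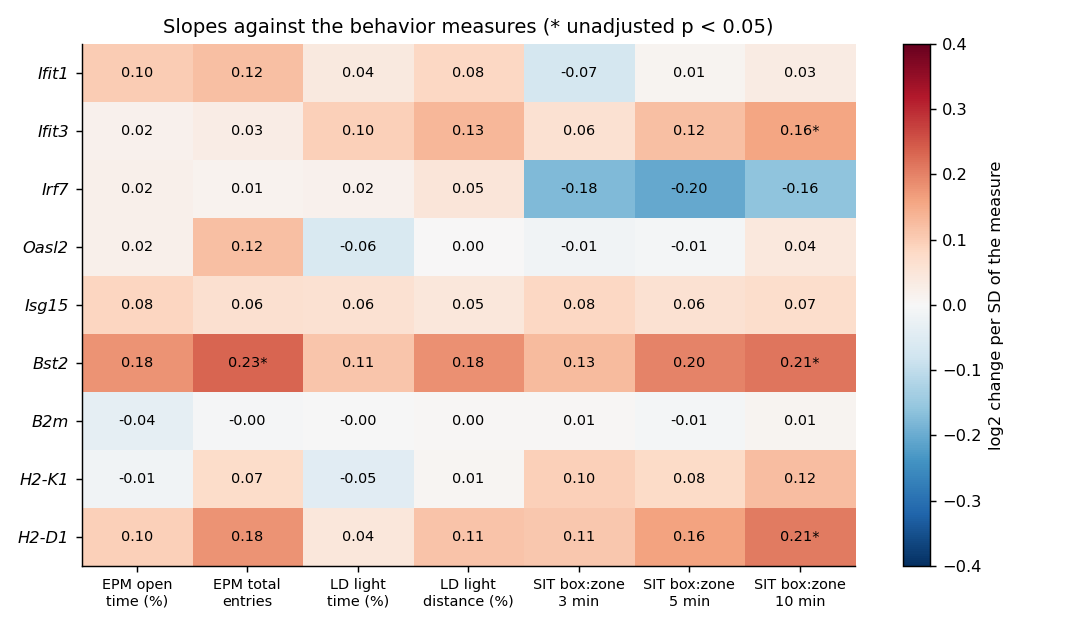
Slope of each member (rows) against each behavior measure (columns) as log2 change per SD of the measure, with an asterisk at an unadjusted p under 0.05. Ifit3, Isg15, Bst2 and H2-D1 are positive for all 7 measures and Irf7 is negative for the 3 time points of the SIT, and none of the 63 slopes was called after adjustment.

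Mouse 5, which no comparison between groups used, was above the highest of the other 11 mice for all 6 interferon-stimulated members, where 12.7% of 15892 genes with a mean of at least 1 CPM were. For 4 of them it was at least 1.5 times higher, where 0.61% of those genes (97) were. The ratio to the highest other mouse was 2.51 for Ifit1 (160 counts, 95% exact interval 1.9 to 3.34), 2.37 for Irf7 (118 counts, 1.69 to 3.37), 2.03 for Oasl2 (273 counts, 1.65 to 2.49) and 1.83 for Ifit3 (478 counts, 1.57 to 2.12). For Bst2 it was 1.24 (0.944 to 1.62) and for Isg15 1.11 (0.815 to 1.53), intervals that include 1. These intervals cover counting error only, and a single mouse gives no replicate check. The ratio was 0.841 for B2m, 0.715 for H2-D1 and 0.579 for H2-K1, whose level in mouse 5 was 0.907 times the median of the other mice.

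Other mice stood above all the rest at this 1.5-fold level in 7 (mouse 4) to 66 genes (mouse 3). The genes with the largest ratios in mouse 5 were of other kinds, with Pik3cg at 4.57 and N4bp2os at 3.82, and Ifit1 was the ninth by this measure. Scaling by library totals or by DESeq2's size factors left the ratio of Ifit1 at 2.55 and 2.58 and that of Irf7 at 2.29 and 2.42.

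**Figure D4:**
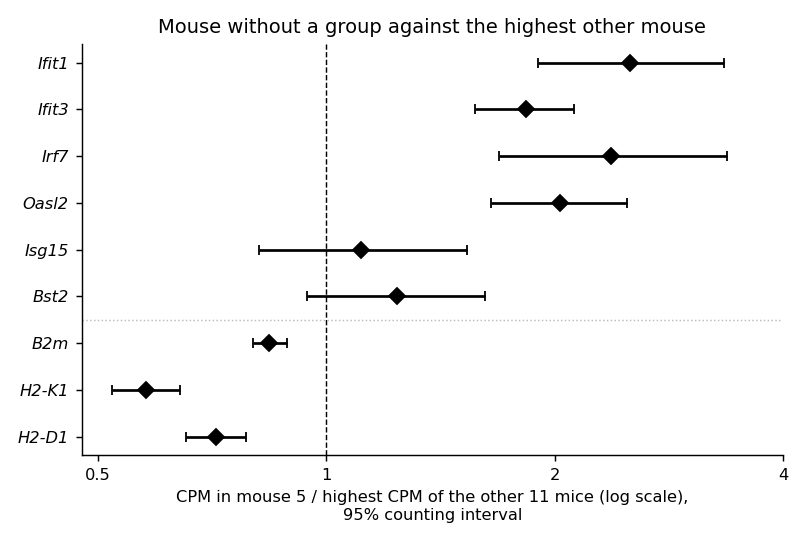
CPM in mouse 5 divided by the highest CPM of the other 11 mice (horizontal log axis) for each member, with the 95% counting interval as a bar and a dashed line at 1. Ifit1, Ifit3, Irf7 and Oasl2 lie between 1.83 and 2.51, Isg15 and Bst2 have intervals that include 1, and the class I members lie below 1.

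The rest of the pathway was read from lists. Among 50 other interferon-stimulated genes, mouse 5 was above the highest other mouse in 5 of the 33 with a mean of at least 1 CPM (Ifit3b, Rtp4, Xaf1, Trim30a and Gbp2), a share near the 12.7% of all such genes. Below that level it was above in 7 of the 16 genes with enough reads for the tests (Ifi44, Mx1, Rsad2, Usp18, Phf11d, Cxcl10 and Slfn2), where 16.0% of 11071 genes were. The largest ratios were those of Ifit3b (2.39), whose reads are shared with Ifit3, and Phf11d (2.37, 76 counts, 1.57 to 3.65). Of the classical targets of type I interferon in this list, Rsad2 had 1.55 (1.05 to 2.29), Usp18 1.55 (1.08 to 2.25) and Mx1 1.57 (0.933 to 2.67, an interval that includes 1). Others had ratios below 1, at 0.912 for Ifit2, 0.518 for Oas2, 0.188 for Isg20 and 0.186 for Oas1a, which was lower in mouse 5 than in all 11 other mice. The median ratio over the 33 genes was 0.847. Among the signaling factors, Jak2 had a ratio of 1.21 (1.13 to 1.3), and Jak1 and Irf1 had 1.02 and 1.01, with intervals that include 1. In contrast, Irf5 (0.428), Irf8 (0.4) and Socs3 (0.271) were lower in mouse 5 than in all 11 other mice. Among the nucleic acid sensors and adaptors, Ddx58 (RIG-I) had 1.31 (1.07 to 1.61), and Aim2 and Ikbke had 1.09 and 1.08, with intervals that include 1. Mavs (0.679), of the same list, was lower in mouse 5 than in all 11 other mice. Of 13 genes of the class I presentation machinery with a mean of at least 1 CPM, Psmb8 (1.14), Calr (1.02) and Pdia3 (1.02) were above, with intervals that include 1. In the same list, Tap1 (0.29), Tap2 (0.299), Psme2 (0.385) and Psmb10 (0.597) were lower in mouse 5 than in all 11 other mice. No interferon ligand or receptor and none of 11 other class I heavy chains was above, and Ifnb1 and Ifna4 had 0 counts in every mouse, which allows up to 3 counts in a library.

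Across the 3 anxiety groups, 0 genes of the lists were called by edgeR. Of the 49 other interferon-stimulated genes tested, 2 had an unadjusted p under 0.05, where 6.35% of all genes did. They were Trim30a (adjusted p = 0.373 by edgeR) and Uba7, the activating enzyme for Isg15 (adjusted p = 0.749 by edgeR). Of the 49, 35 were lower in more than in less anxious mice (median log2 fold change -0.158), where 49.5% of all genes were (median 0.00366). The log2 fold change of Trim30a was -1.25 from less anxious to anxious mice (SE 0.29, adjusted p = 0.987 by edgeR) and -0.16 from less to more anxious mice, and that of Uba7 -0.55 (SE 0.22) and -0.01. Trim30a is the only gene of these pathway lists that DESeq2's likelihood ratio test called (adjusted p = 0.0163 by DESeq2). The highest genes of that list were Ly6e (136.0 ± 13.14 CPM, SD, n = 11), Lgals3bp (18.71 ± 2.733) and Samhd1 (17.6 ± 2.075). Beside the same 6.35% of all genes, 1 of 13 JAK-STAT and IRF factors and 1 of 15 nucleic acid sensors and adaptors had an unadjusted p under 0.05. The first was Irf8, a transcription factor of microglia (log2 fold change -0.59 from less anxious to anxious and -0.17 from less to more anxious mice). The other was Ifih1 (MDA5), with a log2 fold change of -0.67 (SE 0.25, adjusted p = 0.455 by edgeR) between the outer groups and -0.77 (SE 0.25) from less anxious to anxious mice. For 6 interferon ligands and receptors with enough reads, 0 had such a p, and Ifnar1, a chain of the type I receptor, was at 37.83 ± 2.072 CPM.

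In the class I pathway, 2 of 11 other heavy chains, H2-Q2 and H2-M3, had an unadjusted p under 0.05 across the groups, where 6.35% of all genes did. Their log2 fold changes were -0.84 (SE 0.32, adjusted p = 0.466 by edgeR) and -0.20 (SE 0.21) between more and less anxious mice. From less anxious to anxious mice they were 0.04 (SE 0.32) and -0.64 (SE 0.22). Reads of such heavy chains can be divided among near copies. Of 14 genes of the presentation machinery, Nlrc5, a transactivator of class I genes, had such a p, with a log2 fold change of 1.68 from less anxious to anxious mice (SE 0.43, adjusted p = 0.987 by edgeR) and of 0.96 from less to more anxious mice (SE 0.43, adjusted p = 0.546 by edgeR). Calr, Canx and Pdia3, chaperones of class I assembly, were the highest of that list (456.1 ± 53.96, 366.9 ± 79.01 and 217.5 ± 14.61 CPM). The 5 MHC class II genes had no such p across the groups, and Cd74 was at 3.477 ± 2.008 CPM. Against the total entries in the EPM, 4 of the 5 had an unadjusted p under 0.05 by edgeR, where 6.97% of all genes did. For the box:zone ratio at 5 min 1 did, where 6.56% of all genes did, and for the remaining measures 0 did. None was called for any measure, and these slopes share the same mice.

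The members varied together to different degrees from mouse to mouse. Over the 11 mice, 36 pairs were compared by Pearson's r of log2 CPM with two-sided permutation tests, and 2 pairs had a Benjamini-Hochberg adjusted p under 0.05. H2-K1 and H2-D1 had r = 0.855 (permutation p = 0.00078, adjusted 0.014) and rho = 0.882 (permutation p = 0.00077, adjusted 0.0277), and r was 0.881 without mice 10 and 11, the farthest from the median. Bst2 and H2-D1 had r = 0.83 (permutation p = 0.00048, adjusted 0.014) and rho = 0.791 (permutation p = 0.00563, adjusted 0.101), and r was 0.764 without mice 2 and 3. Another 4 pairs had an unadjusted permutation p under 0.05 for r, Oasl2 with H2-K1 (r = 0.76) and with H2-D1 (0.684), Isg15 with Bst2 (0.663) and Ifit3 with H2-D1 (0.626), and their adjusted values ran from 0.0734 to 0.226. Both heavy chains share read windows with other class I genes, as given above.

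Among the 15 pairs of interferon-stimulated members the median r was 0.325, compared with 0.598 for the 3 class I pairs and 0.42 for the 18 pairs between the sets. When mouse 5 was added, these medians became 0.742, 0.546 and 0.227, so the higher value for the interferon-stimulated members rests on that mouse. After both genes were regressed on the PC1 score, the medians were 0.224, 0.717 and 0.383. B2m, the light chain, had r = 0.598 with H2-K1 (rho = 0.145) and 0.234 with H2-D1 (rho = -0.00909). Both rest on mice 10 and 11, without which r was -0.458 and -0.523, and the median of the class I pairs was -0.458.

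**Figure D5:**
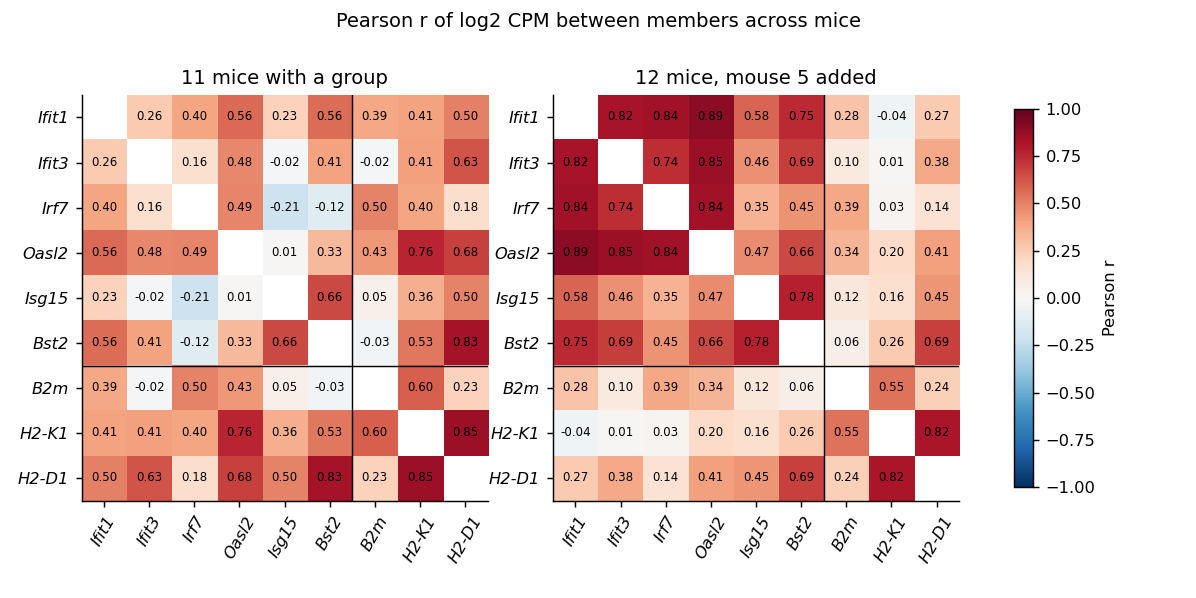
Pearson r of log2 CPM for each pair of members over the 11 mice with an anxiety state (left) and with mouse 5 added (right), as color and number. With mouse 5 the median r of the interferon-stimulated pairs moves from 0.325 to 0.742, and that of the pairs between the sets from 0.42 to 0.227.

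The mean z-score of the 6 interferon-stimulated members was highest in mouse 11 (0.786) and mouse 3 (0.703) and lowest in mouse 2 (-0.931) and mouse 8 (-0.861), and that of the class I members was highest in mouse 11 (1.66) and mouse 10 (1.44). Their correlations with the PC1 score, as a description, were 0.516 and 0.528. Among 15892 genes, those most like the interferon-stimulated mean over the 11 mice were Jak1 (r = 0.932), the kinase of the interferon receptors, and Lyz2 (r = 0.928), a lysozyme gene of macrophages and microglia. They were followed by Appl1, Cop1, Slk, Cyb5r4, Zfp180 and Klhl24 (r = 0.915 to 0.89). The genes most like the class I mean were Cggbp1 (r = 0.885), Dgcr8, Appl1, Cav2, Cacna2d1, Brinp3, Gbp7 (r = 0.84), an interferon-inducible GTPase, and Nectin3. All of these values share the same 11 libraries. The genes were picked for the highest r among 15892, and no p is given. Other interferon-stimulated genes differed in their r with the interferon-stimulated mean, such as Gbp7 (0.853), Ifit3b (0.345) and Lgals3bp (-0.427).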

How the data were processed

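Amygdala mRNA of 12 mice was sequenced with single-end reads of 75 bp, 1 stranded library per mouse, on a single sequencing run. The authors aligned the reads to mm10 using STAR and checked the alignments, and the estimated counts they deposited came from Salmon by way of tximport. They are given as whole numbers (0 values were not whole) without normalization. Tool versions, annotation release and strand setting are not given in the sources used here. Salmon divides reads between near copies, which makes the counts of families such as Ifit and MHC class I less certain. Names and coordinates came from GENCODE M21 (GRCm38), which held 47310 of 47729 genes (99.1%), and promoters from RefSeq (GRCm38.p6), found for 9 of 9 members.

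Groups and behavior measures were read from the labels, which give mouse 5 no state. Genes whose reads in the 11 mice added up to 10 or more were tested with edgeR 4.0.16 (quasi-likelihood F-test, robust, TMM, PC1 score as covariate in group tests, R 4.3.3) with Benjamini-Hochberg adjustment over all genes and a threshold of 0.05. DESeq2 1.42.0 was an alternative, as were other size factors, filters, covariates, ranks and each mouse left out. A standard error is the log2 fold change divided by the square root of F. Log2 CPM used a prior count of 2, and relations used 100000 permutations (Python 3.11.15, scipy 1.17.1, numpy 2.4.6, pandas 2.3.3, matplotlib 3.10.9). Group p-values cover the spread between mice of groups that were themselves made from these data. The procedures were tested on simulated data. The members and the gene lists were chosen with earlier results of these data known. The named genes were all members and, from each list, genes called across the groups or for a behavior measure, genes with an unadjusted p under 0.05 across the groups and the 3 highest by CPM, with 8 genes per pattern by likeness. The genes named for a ratio in mouse 5 were chosen after their values were seen. No column of another sample was present. A result for 1 gene of the pathway lists is not reported here.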

Additional observations from a re-analysis of the deposited data

Results flagged for a closer look

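In 18 tests of a group of 4 mice, of which chance flags about 1 in 20, the anxious mouse 11 stood apart for H2-D1 (34.53 CPM, with 18.95 to 20.75 in the other 3 anxious mice) and the more anxious mouse 2 for Bst2 (1.077 CPM, with 1.864 to 1.906 in the other 3 more anxious mice). Without mouse 11 the H2-D1 difference of more against less anxious mice was -0.261 on the log2 scale, and without mouse 2 that of Bst2 was -0.247, and neither was called.

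Mouse 5, which has no anxiety state and entered no comparison between groups, was above the highest of the other 11 mice for the 6 interferon-stimulated members. The ratio was 2.51 for Ifit1, 2.37 for Irf7, 2.03 for Oasl2, 1.83 for Ifit3, 1.24 for Bst2 and 1.11 for Isg15. Reads fell on 23768 genes in this library and on at least 26378 in each of the others. The part of this difference in the ratios was not tested.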

How the results depend on the processing

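Of 191 refits of the 11 comparisons, each under another setting, 0 called any of the 9 members (smallest adjusted p 0.248, for H2-D1 against the box:zone ratio at 10 min without mouse 8). The signs of Ifit1, Ifit3, Oasl2, Bst2, B2m and H2-D1 between more and less anxious mice held in all 17 alternatives of that comparison. Leaving out 1 mouse moved Irf7 between -0.385 and 0.304, Isg15 between -0.159 and 0.148 and H2-K1 between -0.0562 and 0.253, and without the covariate H2-K1 was -0.0109. The slope of Ifit3 against the box:zone ratio at 10 min ran from -0.00449 (without mouse 3) to 0.194, each per SD of the values fitted.

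Counts over all genes, which serve as background here, moved more. Across the 3 groups they were 9 without the count filter, 0 without the covariate, 1 without the robust option, 205 with DESeq2 and 0 (without mouse 9) to 5 (without mouse 10) with a mouse left out, against 2. For more against less anxious mice they were 2 with library totals, 25 without the filter, 3 without the covariate, 2 without the robust option, 300 with DESeq2 and 0 (without mouse 3 or 9) to 18 (without mouse 6) with a mouse left out, against 12. For anxious against less anxious mice they were 0 without the covariate and 0 to 2 with a mouse left out, and for more anxious against anxious mice 0 to 2. For open-arm time the count was 1 with DESeq2's size factors, library totals, no filter or mouse 5 added, 43 with DESeq2's test and 0 to 3 with a mouse left out. For entries it was 45 with DESeq2 and 0 to 5, and for distance in the light 26 and 0 to 14. For time in the light it was 4 without the filter, 0 with PC1 or ranks, 1 with mouse 5, 15 with DESeq2 and 0 to 16 with a mouse left out. For the box:zone ratio at 3 min it was 11 without the filter, 2 with PC1, 161 with DESeq2 and 1 to 6. At 5 min it was 7 without the filter, 0 with PC1 or ranks, 6 with mouse 5, 43 with DESeq2 and 1 to 5. At 10 min it was 10 without the filter, 2 with PC1, 0 with ranks, 111 with DESeq2 and 1 to 9. The cause of these shifts was not tested.

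The median r of the interferon-stimulated pairs was 0.386 with library totals, 0.742 with mouse 5, 0.224 after PC1 and 0.252 to 0.424 with a mouse left out. For the class I pairs it was 0.717 after PC1, -0.458 without the 2 mice farthest from the median and 0.409 to 0.672 with a mouse left out, and for pairs between the sets 0.486 with library totals, 0.227 with mouse 5 and 0.384 to 0.508. No paired analysis was possible because the groups consist of different mice, each with its own number in the labels. What depth limits was not tested. The SE of the difference between the outer groups was 0.21 for Ifit1 (1.211 to 1.934 CPM) and 0.18 for H2-D1 (17.09 to 34.53 CPM).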
